A study of Mus musculus with 6 samples.

Results

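miR-126a is a microRNA (miRNA) of endothelial cells, the lining of blood vessels. Its hairpin gives rise to a mature RNA from each arm, miR-126a-3p and miR-126a-5p. These 2 rows were taken by name from a table of 1927 mature miRNAs, and their levels and the ratio between them were followed across all 6 libraries. The libraries hold small RNA of extracellular vesicles (EVs), membrane-bound particles shed by cells, from the bone of untreated male Swiss-CD1 mice aged 8 weeks. Tibia and femur were cleaned of soft tissue, their ends were cut off, the marrow was spun out and the shafts were crushed. Large EVs (lEVs, 3 libraries) were the pellet of a spin at 10000 g. Small EVs (sEVs, 3 libraries) were taken from what remained, at 100000 g on a 30% sucrose cushion. Vesicle size, spin and cushion differ together between the fractions and cannot be told apart. Nothing in the labels ties the replicates to separate mice or preparations, so p-values here reflect the spread of these libraries alone, which may be technical.

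As background, miR-126 is encoded in an intron of Egfl7, a gene for a secreted protein of endothelial cells, and the miRNA and its host are typically expressed together. The 3p arm is the better studied product. It represses Spred1 and Pik3r2, which restrain signalling downstream of vascular endothelial growth factor, and so supports vessel growth and integrity. The 5p arm is also active in endothelium, where Dlk1 is among its targets. miR-126 is also known from platelets and from blood stem and progenitor cells, so it is not a marker of endothelium alone, and bone holds a dense vessel network beside these blood cells. The table measures no messenger RNA, so the vesicles' endothelial origin could not be checked against Egfl7 or other endothelial genes.

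The mature 3p arm is shown with its seed, bases 2 to 8, in capitals, because the seed sets which messenger RNAs it can pair with. The hairpin follows, with the 3p arm in capitals, to show where that arm lies. The third sequence is miR-126b-5p, a mature miRNA annotated on the opposite strand of the same locus, with the bases that lie opposite miR-126a-3p in capitals.
miR-126a-3p: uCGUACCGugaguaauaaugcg
Mir126a hairpin: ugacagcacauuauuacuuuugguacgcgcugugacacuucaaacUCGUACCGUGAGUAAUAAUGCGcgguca
miR-126b-5p: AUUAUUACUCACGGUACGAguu
The sequences are from RefSeq (GRCm38.p6), which had an entry for 1 of the 2 arms, miR-126a-3p. The hairpin lies on the plus strand of chromosome 2, from 26591357 to 26591429, and its 73 bases hold the 3p arm at positions 46 to 67 (chromosome 2, 26591402 to 26591423).

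In the GENCODE M21 annotation of GRCm38, the host gene Egfl7 spans 26580014 to 26593120 on the same strand. The hairpin lies within an intron of 8 of its 19 transcripts, overlaps an exon of 1 and lies outside the span of the other 10. The surrounding intron runs from 26591064 to 26591663 or, in other transcripts, to 26592117. No other mature miRNA among 1679 RefSeq names had the seed of miR-126a-3p. Its GC content was 45.5%, against a median of 45.8% for the tested miRNAs with a RefSeq sequence. It begins with U, as did 57.4% of these 129 miRNAs. GGAG and CCCU, short motifs that have been studied in the sorting of miRNAs into vesicles, were searched on the RNA strand only. Neither is in miR-126a-3p, and each was found in 8.5% of the 129.

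Mir126b, the antisense hairpin, runs from 26591363 to 26591420 on the minus strand, wholly within the Mir126a locus. Its miR-126b-5p is the reverse complement of miR-126a-3p over 19 bases. Both miR-126b arms were listed at 0 in all 6 libraries. The table held no value of 1 anywhere, so a listed 0 could also be a single count, and no upper bound is given. Counts at this locus were thus listed for miR-126a only, and whether strand was used in counting is not given in the sources used here.

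miR-126a-3p was among the most abundant miRNAs of both fractions. It had 2849, 6334 and 5905 counts in lEVs replicates 1, 2 and 3, and 5851, 7422 and 8241 in sEVs replicates 1, 2 and 3. As shares of a library's counts, the lEVs values were 6.01%, 6.85% and 6.82%, and the sEVs values were 7.75%, 7.47% and 7.21%. The lowest sEVs share lay above the highest lEVs share, as for 17.9% of the 145 miRNAs tested, and lEVs replicate 1 was the lowest of all. The exact (Clopper-Pearson) 95% intervals of these 2 neighbouring shares were 7.06% to 7.36% for sEVs replicate 3 and 6.69% to 7.01% for lEVs replicate 2, and they cover counting error only. By counts it stood at rank 6 in lEVs replicate 1, at rank 3 in the other lEVs libraries and at rank 4 in each sEVs library.

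miR-126a-5p, the less abundant arm, had 243, 885 and 794 counts in lEVs replicates 1, 2 and 3, and 639, 901 and 1177 in sEVs. Its shares were 0.512%, 0.957% and 0.916% of lEVs counts and 0.847%, 0.907% and 1.03% of sEVs counts. The fractions overlapped on this scale: lEVs replicates 2 and 3 lay among the sEVs libraries, and lEVs replicate 1 lay apart below all others, with a 95% interval of 0.450% to 0.581%. It ranked between 21 and 28 in the 6 libraries, so the lesser arm of this hairpin was itself more abundant than most miRNAs in the table.

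Both arms together held 6.52%, 7.80% and 7.73% of the counts in lEVs and 8.60%, 8.38% and 8.24% in sEVs. The means ± SD over 3 libraries were 8.41% ± 0.181 (sEVs) and 7.35% ± 0.723 (lEVs), a difference of 1.05 percentage points in which no sEVs library overlapped the lEVs libraries (exact two-sided permutation p = 0.1, the smallest that 3 against 3 libraries allow). The difference was 0.637 percentage points without lEVs replicate 1. These are shares of a pool of vesicle RNA, where more vesicles from a cell type and more copies per vesicle cannot be told apart.

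**Figure D1:**
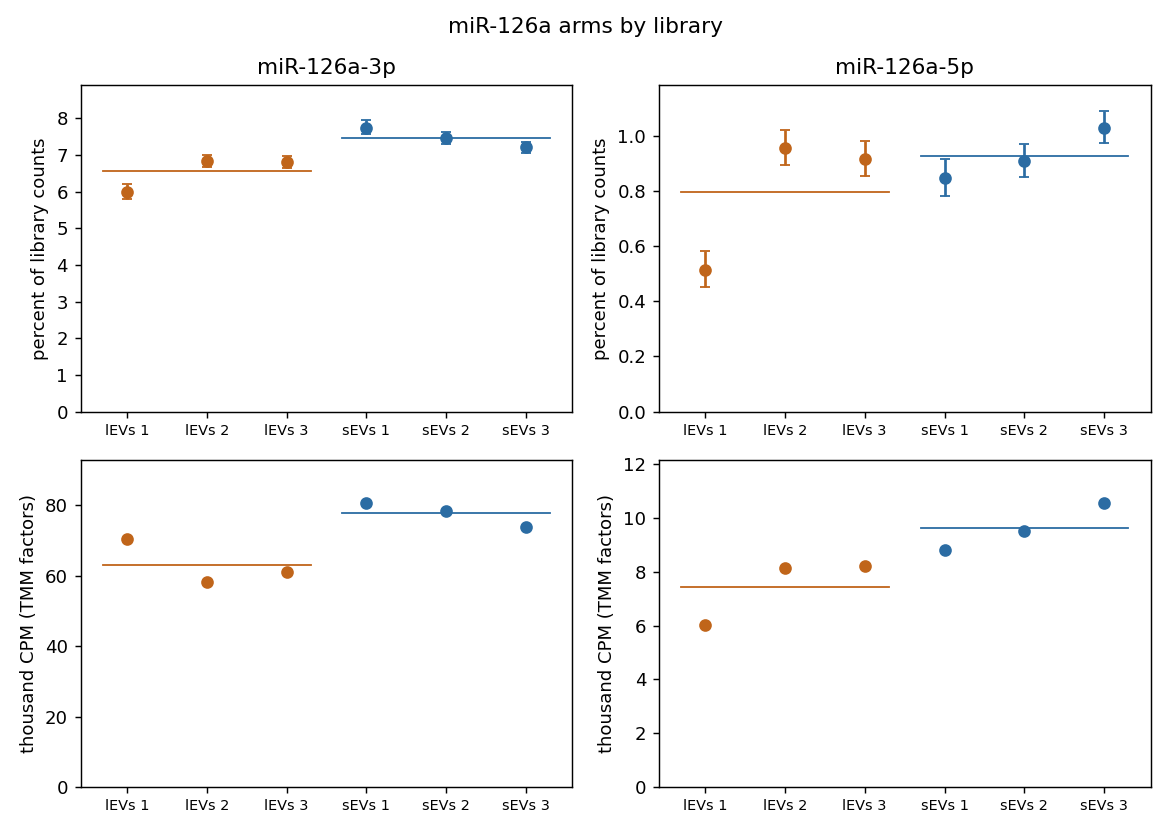
Each point is a library (lEVs orange, sEVs blue), lines are means of 3, and the y axes give the percent of library counts with exact 95% intervals (top) and CPM with TMM factors (bottom). The 3p arm separates the fractions on both scales, while the shares of the 5p arm overlap, with lEVs replicate 1 lowest at 0.512%.

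The library totals ran from 47441 to 114331 counts, with lEVs replicate 1 the smallest. That library also stood apart in scaling: TMM factors, which correct library totals for differences in RNA composition, were 0.853 for it, 1.18 and 1.12 for the other lEVs libraries, and between 0.952 and 0.974 for sEVs. For both arms, their ratio and the ratios to other miRNAs, values without it are given where they changed a call, a direction or a size by over 1.5 times.

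The single contrast of the design sets sEVs against lEVs. In CPM, counts scaled by the library total and its TMM factor, miR-126a-3p stood at 70394, 58152 and 60989 CPM in lEVs replicates 1, 2 and 3 and at 80744, 78464 and 73985 CPM in sEVs. The 3 sEVs values were the highest. On this scale lEVs replicate 1 was the highest lEVs library, whereas it was the lowest by share. The means ± SD of 3 libraries were 77731 ± 3438 CPM for sEVs and 63178 ± 6408 CPM for lEVs, a 1.23-fold difference (log2 fold change 0.30, SE 0.13) that did not pass the threshold of 0.05 (edgeR, quasi-likelihood, Benjamini-Hochberg over all miRNAs tested, adjusted p = 0.126).

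miR-126a-5p stood at 6004, 8125 and 8201 CPM in lEVs replicates 1, 2 and 3 and at 8818, 9525 and 10567 CPM in sEVs. Here the 3 sEVs values were again the highest, by a margin over lEVs replicates 2 and 3 that the shares did not show. The means ± SD of 3 libraries were 9637 ± 880 CPM for sEVs and 7443 ± 1247 CPM for lEVs, a 1.29-fold difference (log2 fold change 0.37, SE 0.16) that also did not pass (edgeR adjusted p = 0.131).

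Thus 0 of the 2 arms were called by edgeR, where 17.2% of the 145 miRNAs tested were called, 8.28% as higher in sEVs. At an unadjusted p under 0.05 both arms and 55 of the 145 miRNAs passed in edgeR. DESeq2 called the 3p arm (adjusted p = 0.0381) but not the 5p arm (0.132), with 11.7% of miRNAs called as higher in sEVs, and limma voom called neither (adjusted p = 0.105 and 0.106), with 10.3% called as higher in sEVs. For both arms the 3 sEVs values in CPM lay above the 3 lEVs values, as they did for 22.1% of the miRNAs tested. Many miRNAs differed by more: 96 of the 145 miRNAs had a larger absolute log2 fold change than the 3p arm and 84 a larger one than the 5p arm.

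In edgeR the call of the 3p arm turned on 1 library. Without lEVs replicate 1 its log2 fold change was 0.38 (SE 0.08; edgeR adjusted p = 0.00137), in a fit that called 19.2% of 151 miRNAs as higher in sEVs. The 5p arm moved the other way, to 0.23 (SE 0.12; edgeR adjusted p = 0.136). With library totals in place of TMM factors the log2 fold changes were 0.19 for the 3p arm and 0.22 for the 5p arm (edgeR adjusted p = 0.155 and 0.522), while the median over all miRNAs tested was -0.18, against -0.04 with TMM factors. The calls over all miRNAs then split into 11 higher in sEVs and 24 higher in lEVs, against 12 and 13.

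**Figure D2:**
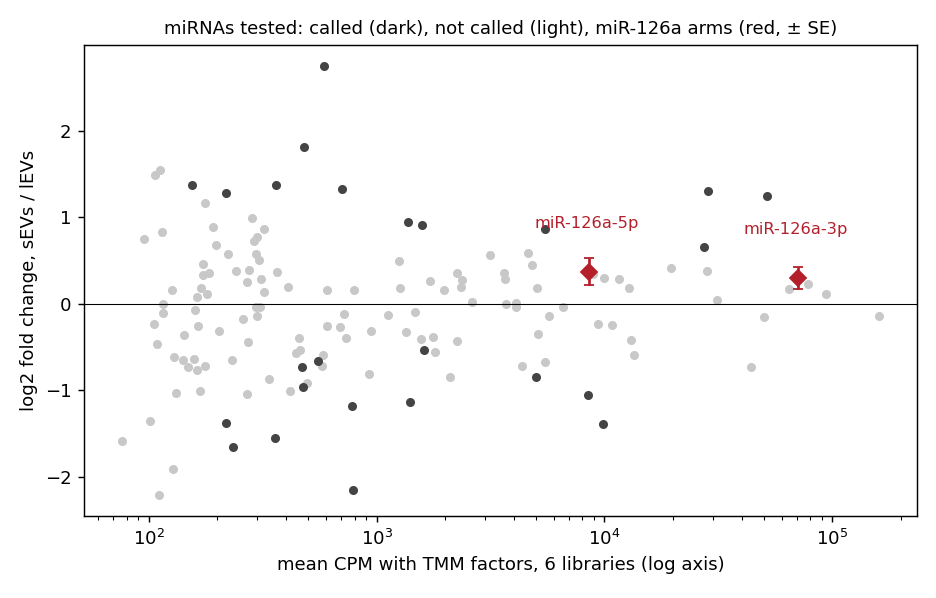
Points are the 145 miRNAs tested, by mean CPM over the 6 libraries (x, log axis) and log2 fold change of sEVs over lEVs (y), dark where called by edgeR and red for the miR-126a arms with their SE. Both arms lie slightly above 0, at 0.30 and 0.37, among uncalled miRNAs, and several called miRNAs of similar abundance lie further from 0.

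Counting error was smaller than the spread between replicates. By itself it would give miR-126a-3p a coefficient of variation between 1.10% and 1.87% in a library, and the CPM values varied by 4.42% between sEVs libraries and 10.1% between lEVs libraries. For miR-126a-5p counting error was between 2.91% and 6.42%, against 9.13% between sEVs libraries and 16.8% between lEVs libraries.

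The ratio between the arms is free of library scaling. The 3p arm exceeded the 5p arm in every library, by 11.7-fold, 7.16-fold and 7.44-fold in lEVs replicates 1, 2 and 3 and by 9.16-fold, 8.24-fold and 7.00-fold in sEVs. The fractions overlapped, and lEVs replicate 1 was again apart: its 95% interval of 10.3 to 13.4 lay above those of the 5 other libraries. Expressed the other way, the 5p arm made up 7.86% of the hairpin's counts in lEVs replicate 1, 12.3% and 11.9% in the other lEVs libraries, and 9.85%, 10.8% and 12.5% in sEVs.

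The ratio differed within each fraction by more than counting error. In sEVs the interval of replicate 1, 8.44 to 9.95, did not reach that of replicate 3, 6.59 to 7.45. Relative to the mean of the other lEVs libraries, lEVs replicate 1 had a log2 ratio higher by 0.68, made up of a 3p difference of 0.24 and a 5p difference of -0.44 in log2 CPM. In this library the arms moved in opposite directions on this scale.

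**Figure D3:**
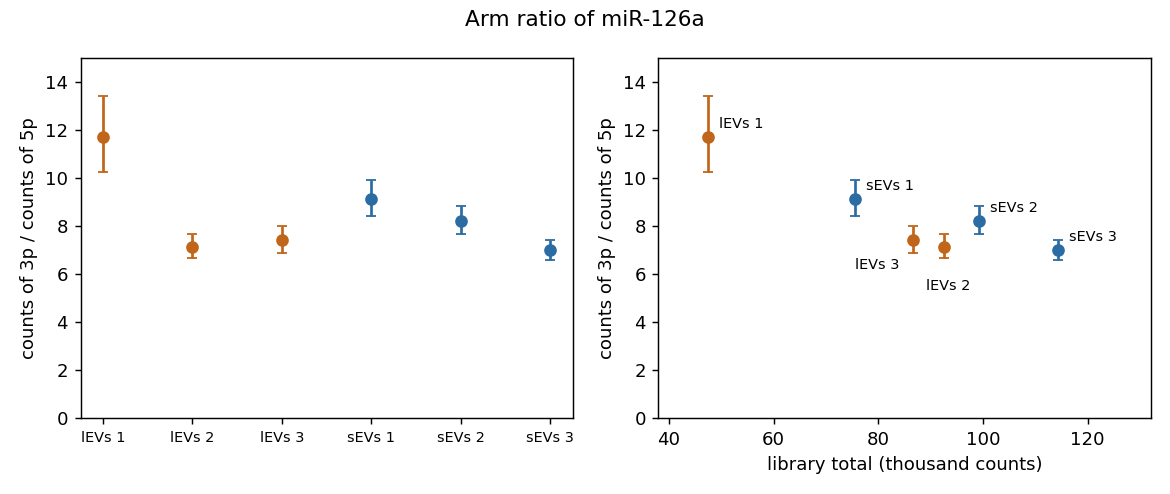
The y axes give counts of miR-126a-3p over counts of miR-126a-5p with exact 95% intervals, by library (left) and against the library total (right), lEVs orange and sEVs blue. The smallest library, lEVs replicate 1, has the highest ratio, 11.7, and the largest, sEVs replicate 3, has the lowest, 7.00.

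Between the fractions the arm ratio was not shown to differ. The log2 ratio had a mean ± SD over 3 libraries of 3.01 ± 0.195 for sEVs and 3.10 ± 0.396 for lEVs (exact two-sided permutation p = 0.8). In a limma fit over the 15 hairpins whose arms were both tested as rows of their own, with 1 count added to each arm, the difference for miR-126a was -0.08 (SE 0.31; adjusted p = 0.930). That fit called 2 of the 15 hairpins, or 13.3%, and 6 at an unadjusted p under 0.05. Without lEVs replicate 1 the sign turned, to 0.15 (SE 0.29; limma adjusted p = 0.867), and 0 of 18 hairpins were then called, so the direction of the difference is not determined by these libraries.

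Among the 15 hairpins, miR-126a was 1 of 6 in which the 3p arm was the more abundant, and only miR-223 and miR-140 had a higher ratio of 3p to 5p. The median hairpin had a major arm 2.89-fold above its minor arm, against 8.30-fold for miR-126a. Its minor arm, at a mean of 8540 CPM, was nonetheless the most abundant minor arm of the 15. The hairpins nearest in ratio were those of miR-140, a cartilage miRNA, with 14.7-fold more 3p, miR-139 with 2.11-fold and miR-142a, of blood cells, with 1.89-fold. The log2 ratio of miR-126a had an SD of 0.281 over the 6 libraries, lower than that of all but 2 of the other hairpins (median 0.542). Apart from miR-142a, with 5725 CPM, the minor arms of the other hairpins were at or below 925 CPM and so rest on far fewer counts.

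**Figure D4:**
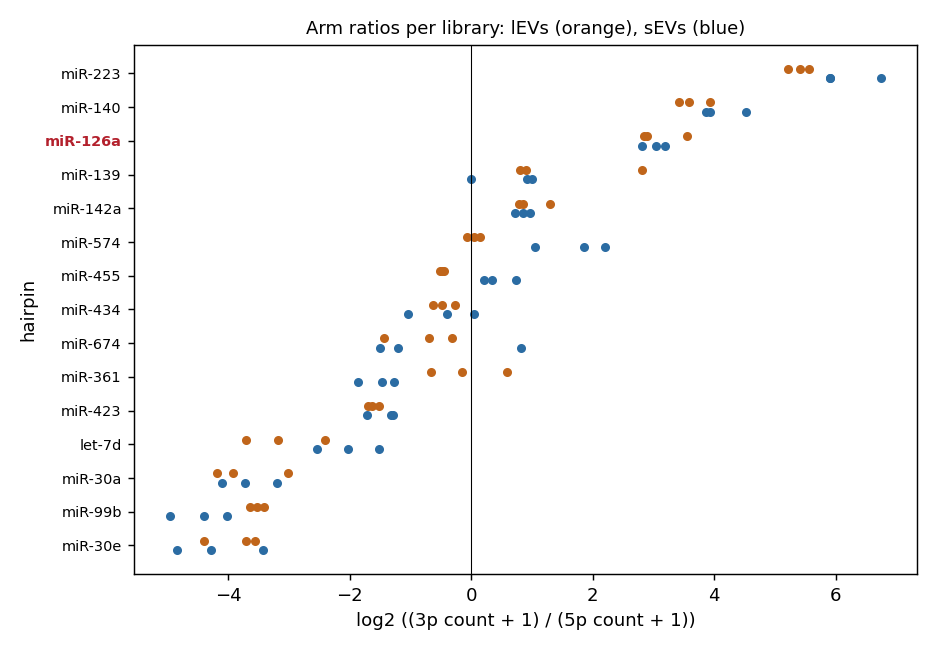
Rows are the 15 hairpins with both arms tested, ordered by mean ratio, and the x axis gives the log2 ratio of 3p to 5p counts (1 added to each) in each library, lEVs orange and sEVs blue. miR-126a lies below miR-223 and miR-140, with its lEVs and sEVs values overlapping around 3.

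In mean CPM over the 6 libraries, miR-126a-3p stood in place 4 between let-7c-5p (sEVs 84432 ± 5785, lEVs 72392 ± 27954) and let-7b-5p (sEVs 68014 ± 6483, lEVs 60499 ± 26817; means ± SD of 3 libraries). The 3 miRNAs did not differ beyond their spread in lEVs, where the let-7 values varied widely. miR-126a-5p stood in place 23, between the joined row miR-27a-3p/27b-3p, at 8885 CPM over the 6 libraries, and miR-29a-3p, at 8501 CPM. Values of different miRNAs can also differ through ligation and amplification, so this order is one of counts.

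miR-126a-3p was next set against 6 other miRNAs in the same library. The first, miR-16-5p, is abundant in blood cells but is not among the cell type markers used below. Relative to it, miR-126a-3p stood at 0.325, 0.430 and 0.403 in lEVs replicates 1, 2 and 3 and at 0.511, 0.515 and 0.512 in sEVs. The sEVs libraries were nearly identical in this ratio and all lay above the lEVs libraries, by 0.42 on the log2 scale (exact two-sided permutation p = 0.1, adjusted p = 0.2 over 6 ratios). Relative to miR-199a-3p/199b-3p, of mesenchymal cells, it stood at 0.651, 0.736 and 0.730 in lEVs and at 0.893, 0.773 and 0.741 in sEVs, a log2 difference of 0.18 (exact permutation p = 0.1, adjusted p = 0.2) that was 0.10 without sEVs replicate 1. The closest values of the fractions, 0.736 and 0.741, were almost equal.

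Relative to the lymphocyte miRNA miR-150-5p, the order was the opposite. There were 67.9, 50.7 and 53.2 counts of miR-126a-3p for each count of miR-150-5p in lEVs, and 35.9, 36.0 and 40.0 in sEVs, a log2 difference of -0.61 (exact permutation p = 0.1, adjusted p = 0.2). Against miR-223-3p, of granulocytes and monocytes, the lEVs ratios were 2.33, 1.88 and 1.97 and the sEVs ratios 2.56, 2.57 and 2.26, and the fractions overlapped (log2 difference 0.26; exact permutation p = 0.2, adjusted p = 0.3). Against miR-143-3p, of smooth muscle and other mural cells of vessels, lEVs had 3.99, 2.43 and 2.72 and sEVs 2.76, 2.20 and 2.07, again overlapping (log2 difference -0.36, or -0.15 without lEVs replicate 1; exact permutation p = 0.3, adjusted p = 0.36). Against the red cell miRNA miR-451a, with only 6 to 41 counts in a library, the ratio lay between 167 and 407 in lEVs and between 177 and 284 in sEVs (log2 difference -0.17, or 0.12 without lEVs replicate 1; exact permutation p = 0.8, adjusted p = 0.8). Thus miR-126a-3p was higher in all sEVs libraries against miR-16-5p and miR-199a-3p/199b-3p, and lower against miR-150-5p. How often other miRNAs would separate the fractions as denominators was not tested. No ratio passed at this number of libraries. Each ratio has a single row as its denominator, so it does not stand for a lineage. The denominator miR-150-5p was itself called, with means of 2081 CPM for sEVs and 1096 CPM for lEVs (edgeR adjusted p = 0.00268). So was miR-143-3p, with means of 33575 CPM for sEVs and 21305 CPM for lEVs (edgeR adjusted p = 0.0231). The rows of miR-16-5p, miR-199a-3p/199b-3p, miR-223-3p and miR-451a were not (edgeR adjusted p = 0.569, 0.602, 0.783 and 0.427).

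**Figure D5:**
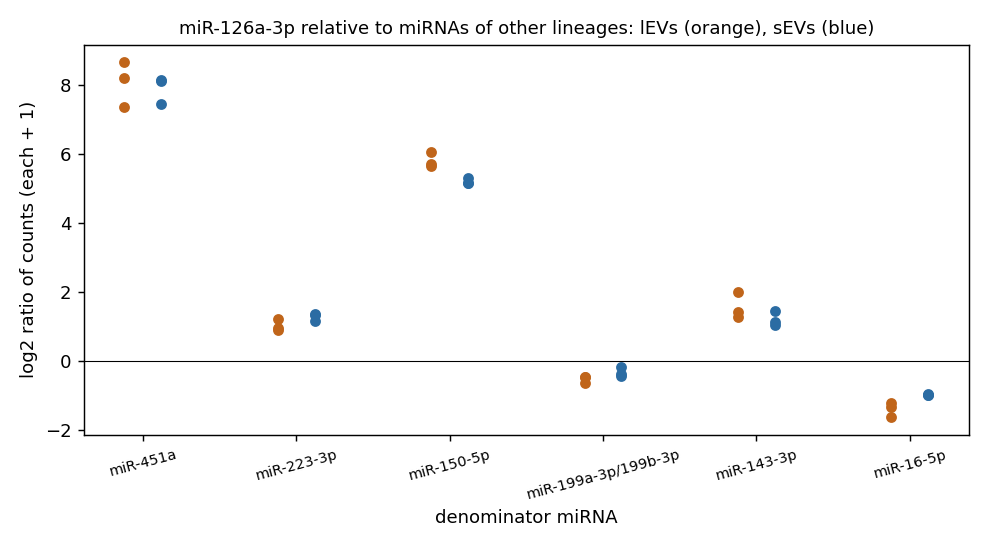
The y axis gives the log2 ratio of miR-126a-3p counts to counts of the miRNA named on the x axis (1 added to each) in each library, lEVs orange and sEVs blue. The fractions separate for miR-150-5p (sEVs lower), miR-199a-3p/199b-3p and miR-16-5p (sEVs higher), and overlap for the others.

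Markers of other cell types gave the setting. The mesenchymal markers, with all 5 of their rows tested, summed to between 12.3% and 13.6% of lEVs counts and between 16.9% and 17.3% of sEVs counts, separating the fractions in the same direction as both arms of miR-126a together. Of the 5, miR-125b-5p, at 72760 CPM for sEVs and 30716 CPM for lEVs, and miR-10b-5p were called higher in sEVs, while miR-199a-3p/199b-3p, miR-199a-5p and miR-214-3p did not pass (edgeR adjusted p = 0.602, 0.0669 and 0.680). The log2 fold changes of these uncalled rows were 0.11, 0.45 and -0.17, the last toward lEVs. The sum of the 4 cartilage rows separated the other way, with between 1.44% and 2.05% of lEVs counts and between 1.12% and 1.20% of sEVs counts. In CPM, however, miR-140-3p, miR-140-5p and miR-455-5p each overlapped between the fractions (edgeR adjusted p = 0.253, 0.119 and 0.869). miR-455-3p was higher in all sEVs libraries (log2 fold change 0.83; edgeR adjusted p = 0.124). The most abundant, miR-140-3p, stood at 22015 CPM in lEVs replicate 1 and at 11265 and 11743 CPM in the other lEVs libraries. The 5 myeloid rows summed to between 4.48% and 6.17% of lEVs counts and between 4.74% and 5.21% of sEVs counts, overlapping. The 3 smooth muscle and pericyte rows held between 1.54% and 2.91% of lEVs counts and between 2.85% and 3.52% of sEVs counts. The sums of the erythroid, lymphoid and skeletal muscle markers also overlapped between the fractions. The liver miRNA miR-122-5p and the neuronal miRNA miR-124-3p were listed at 0 in all libraries. The other neural row, that of miR-9-5p, held at most 0.00503% of any library, and the epithelial rows held at most 0.0126%. The part of other cell types in the levels of miR-126a was not tested.

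Of 26 other miRNAs known from endothelium or from the control of vessel growth, 23 rows were found and 17 were tested. Among these 17, 2 were called higher in sEVs, 1 was called higher in lEVs and 14 did not pass, where 17.2% of all miRNAs tested were called, 8.28% as higher in sEVs and 8.97% as higher in lEVs. Their median log2 fold change was -0.04, the same as that of all miRNAs tested, and 6 of the 17 were above 0. The rises were in miR-23a-3p/23b-3p, from clusters that act in vessel sprouting (sEVs 7084 ± 443 CPM, lEVs 3883 ± 370 CPM, means ± SD of 3 libraries; log2 fold change 0.86; edgeR adjusted p = 0.00263), and in miR-10b-5p, a Hox cluster miRNA (1812 ± 260 and 943 ± 56.3 CPM; log2 fold change 0.94; edgeR adjusted p = 0.00367). miR-10b-5p is also among the mesenchymal markers above, so the same call is counted in both places. miR-146a-5p, of this list, is likewise among the myeloid markers.

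The fall in sEVs was that of miR-322-5p, the mouse counterpart of human miR-424 (1314 ± 198 and 1898 ± 134 CPM; log2 fold change -0.53; edgeR adjusted p = 0.0477). This call of miR-322-5p missed the threshold in edgeR with library totals (adjusted p = 0.0536), with DESeq2 size factors (0.0569), with a mean of at least 100 CPM (0.0556), with the replicate number as a block (0.0599), without lEVs replicate 2 or 3 (0.0991 and 0.134) and without sEVs replicate 1 or 2 (0.146 and 0.125). DESeq2 called it with the filter on low counts (adjusted p = 0.0442) but not without (0.194). The 4 most abundant others had log2 fold changes of 0.34 for miR-27a-3p/27b-3p, -0.04 for miR-146a-5p, which dampens inflammatory signalling, -0.01 for miR-24-3p and 0.28 for miR-101a-3p/101b-3p/101c (edgeR adjusted p = 0.196, 0.831, 0.964 and 0.216). Without lEVs replicate 1 miR-27a-3p/27b-3p was called, at 0.54 (edgeR adjusted p = 0.00137), and 3 of 17 list members were then called higher in sEVs. In that fit miR-146a-5p stood at -0.09 and miR-24-3p at -0.03, both uncalled. Of the 6 rows not tested, miR-126b-3p, miR-126b-5p and miR-132-3p were listed at 0 throughout, and miR-210-3p, which hypoxia induces, had 7 and 10 counts in lEVs replicates 2 and 3 and was listed at 0 elsewhere.

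The miRNAs whose profile over the 6 libraries was most like that of each arm were different sets, and the arms were not much like each other. On log2 CPM with TMM factors, miR-126a-3p was closest to miR-199a-5p (Pearson r = 0.99, Spearman rho = 1.0), let-7e-5p/7k (0.98 and 0.94), let-7a-5p (0.97 and 1.0), let-7d-3p (0.97 and 0.94) and miR-5126 (0.97 and 1.0). miR-126a-5p was closest to miR-26b-5p (0.98 and 0.83), miR-30e-5p (0.98 and 1.0), miR-27a-5p (0.98 and 0.94), miR-335-5p (0.97 and 0.83) and miR-143-3p (0.95 and 0.94). The arms themselves had r = 0.32 and rho = 0.60, which placed the 5p arm at rank 47 of 144 in likeness to the 3p arm. Without lEVs replicate 1 this was r = 0.67 over 5 libraries. These values describe 6 libraries that share their scaling factors and depth, and they were picked as the highest of 144.

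With library totals in place of TMM factors, 0 of the 5 miRNAs closest to the 3p arm and 2 of the 5 closest to the 5p arm were kept, and the arms' own r was 0.73, so the likeness depends on the scaling. For comparison with the seed of miR-126a-3p shown above, the closest miRNAs of the 3p arm and then of the 5p arm are shown with their seeds in capitals.
miR-199a-5p: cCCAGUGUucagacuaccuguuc
let-7e-5p: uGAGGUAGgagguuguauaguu
let-7a-5p: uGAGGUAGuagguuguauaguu
miR-26b-5p: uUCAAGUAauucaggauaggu
miR-30e-5p: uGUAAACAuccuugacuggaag
Both let-7 miRNAs share the seed of their family, and none of the 5 has the seed of miR-126a-3p.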

How the data were processed

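Small RNA libraries (QIAseq miRNA kit, MiSeq single reads of 75 bases, per the labels' protocols) were analysed from the deposited counts per mature miRNA, whole numbers left unscaled by the authors. The submitters' processing notes name the build GRCm38, DESeq2 1.38.2 and R 4.2.2. For the aligner, strand and molecular identifiers, the sources used here give nothing. Columns were matched to libraries by the labels' descriptions. Replicates differed beyond counting noise (chi-square per degree of freedom of at least 2.06).

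The tests across miRNAs ran in R 4.3.3 with edgeR 4.0.16 (TMM, filterByExpr with at least 10 counts and a total of 15), which kept 145 of 327 miRNAs above 0, both arms included. Arm ratios used limma 3.58.1, and single values exact permutation tests. DESeq2 1.42.0 and limma voom were among the alternatives, and the code was checked on simulated data. SE is the absolute log2 fold change over the square root of F. Named miRNAs were the arms, the 5 most like each, the 6 denominators of the ratios, called and the 4 most abundant other list members, neighbours in abundance and the 3 hairpins nearest in ratio. The members and lists were chosen with earlier results of these data known.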

Additional observations from a re-analysis of the deposited data

How the results depend on the processing

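Both arms kept log2 fold changes above 0 under all 14 alternatives. miR-126a-3p passed with DESeq2 (0.31), with DESeq2 without the filter on low counts (0.33; adjusted p = 0.0212), a setting chosen after seeing the data, and, among fits that left out a library (0.21 to 0.38), without lEVs replicate 1. miR-126a-5p passed in none (0.23 to 0.46 with a library left out). The 25 calls became 53 with no filter on low counts and 16 to 52 with a library left out. The arm ratio difference ranged from -0.21 to 0.15, turning sign without lEVs replicate 1 (0.15) or sEVs replicate 3 (0.02). The difference in the ratio of miR-126a-3p to miR-451a turned with a pseudocount of 10 (0.11), without lEVs replicate 1 (0.12) or sEVs replicate 2 (0.05), and ranged from -0.52 to 0.12 with a library left out. The cause was not tested. Replicate numbers did not pair the libraries: same-numbered libraries' deviations from their group means correlated at -0.04, 0.02 and 0.35, and not every library correlated best with its own number. With the replicate block 26 miRNAs passed, the 3p arm stood at 0.30 and the 5p arm at 0.38 (edgeR adjusted p = 0.153 and 0.0939), and the arm ratio difference at -0.08.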

Other observations

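The arm ratio of miR-126a fell with the depth of the library, a relation noticed in these data. Over the 6 libraries the log2 ratio of 3p to 5p and the library total had Pearson r = -0.91 (exact permutation p = 0.0181) and Spearman rho = -0.83 (exact permutation p = 0.0583). Both p-values are unadjusted, although rho was computed for all 15 hairpins. They come from the same 6 libraries in which the relation was noticed, so they are no test of it. Without lEVs replicate 1 and sEVs replicate 3, the libraries farthest from the median depth, r was -0.52 over 4 libraries, so the relation rests on those 2. Within a fraction, where 3 libraries are too few for a correlation, the ratio was lower the larger the library in both: 11.7, 7.44 and 7.16 at 47441, 86637 and 92502 counts for lEVs, and 9.16, 8.24 and 7.00 at 75486, 99314 and 114331 counts for sEVs. Of the 15 hairpins with both arms tested, miR-126a had the lowest rho between the ratio of major to minor arm and depth, 4 of the 15 had a rho below 0, and the median was 0.14.

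In lEVs replicate 1 the ratio of the major to the minor arm exceeded its mean over lEVs replicates 2 and 3 in 5 of the 15 hairpins, with a median log2 shift of -0.18, against 0.68 for miR-126a. Taken as 3p to 5p, the shift exceeded that of miR-126a in miR-139 (1.95), let-7d (1.04), miR-30a (1.03), miR-361 (0.99) and miR-674 (0.74). It was below 0 in miR-140, miR-574, miR-223, miR-455 and miR-423. A higher ratio of 3p to 5p in this library was thus not particular to miR-126a.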
